A study of Homo sapiens with 6 samples.

Results

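The genes described here carry the detection of misplaced DNA and RNA inside a cell, and were chosen by symbol: CGAS, STING1, MAVS, TBK1, IKBKE, IRF3, TLR3, TREX1, SAMHD1 and ZBP1. All 10 were found among the 62700 genes of the count table. They were measured in HEK293T, a fast-growing human line of embryonic kidney origin that expresses large T antigen of SV40. In 3 editor libraries the cells had received plasmid for SpRY-ABE8e, in which an evolved adenine deaminase is fused to a Cas9 nickase relaxed in its PAM requirement, and guides against the splice acceptor and splice donor of APP exon 17. In 3 GFP libraries the cells had received a GFP plasmid. Both groups were transfected with plasmid DNA by Lipofectamine 2000, so neither shows the line without foreign DNA. Each library is a bulk sample of 1 cell line, in which fewer expressing cells and less RNA per cell cannot be told apart.

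In the textbook pathway, cGAS binds DNA in the cytosol and makes the cyclic dinucleotide cGAMP, which activates STING on the endoplasmic reticulum. RNA in the cytosol is bound by RIG-I and MDA5, which signal through MAVS on mitochondria, while TLR3 binds double-stranded RNA in endosomes. These arms meet at the kinases TBK1 and IKKε (gene IKBKE), which phosphorylate IRF3 so that it turns on the type I interferon gene IFNB1. TREX1 and SAMHD1 act before the sensors: the first degrades stray DNA and the second hydrolyses deoxynucleotides. HEK293T cells are widely used as hosts in which cGAS and STING are supplied from plasmids.

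The libraries were deep. The editor libraries held 110519197 to 152625595 counts and the GFP libraries 124681733 to 128988337. Editor libraries 2 and 3 were unusually alike: the chi-square of their counts per degree of freedom was 3.16, whereas other pairs of the same group gave 31.6 to 174.6. Both were used as separate replicates, following their labels. By the same measure editor library 1 gave 39.42 and 71.81 with GFP libraries 3 and 2, and 143.8 with GFP library 1. With editor libraries 2 and 3 it gave 104.8 and 110.9. Of 10 markers of the line (keratin, neurofilament and early kidney genes), 9 reached 1 TPM, but only 1 of 8 markers of mature kidney did, the endocytic receptor LRP2. The labels give the tissue as kidney, but the tubule marker UMOD had 5 reads in all. Of 10 immune markers 9 were under 1 TPM, and the leukocyte marker PTPRC had 22 reads in all. HLA-DRA and AIF1 had 0 reads, but they lie in the major histocompatibility complex, where the tubulin gene TUBB and the helicase gene DDX39B, which every cell uses, had only 61 and 11 reads.

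Among the 10 genes, the adaptors, the kinases, IRF3 and SAMHD1 were expressed, and the sensors CGAS, ZBP1 and TLR3 were at low levels or nearly without reads. Levels between genes are given as TPM, which are reads per exon length scaled to a fixed total in each library, averaged over the 6 libraries with the SD over them. TBK1 stood at 30.9 ± 3.63 TPM, IRF3 at 26.6 ± 4.23, MAVS at 20.7 ± 5.51 and SAMHD1 at 17.9 ± 3.62. STING1 followed at 4.15 ± 0.561 TPM, IKBKE at 1.13 ± 0.337, TLR3 at 0.336 ± 0.0787 and CGAS at 0.0499 ± 0.0305. ZBP1 had 1 read and TREX1 had 0. In all, 6 of the 10 reached 1 TPM, as did 60.7% of protein-coding genes. Among TBK1, IRF3, MAVS and SAMHD1 the ranges of neighbours in this order overlapped, while TBK1 (25.3 to 34.3 TPM) and IRF3 (23 to 33.9) lay above SAMHD1 (13.1 to 22.4). With the longest transcript in place of all exons as gene length, SAMHD1 stood at 27.2 TPM, below TBK1 at 33.4 but above IRF3 at 25.9. From SAMHD1 down to ZBP1 each gene lay above the next in all 6 libraries. The step down was 4.32-fold from SAMHD1 to STING1, 3.69-fold from STING1 to IKBKE, 3.35-fold from IKBKE to TLR3 and 6.73-fold from TLR3 to CGAS. IKBKE sat at the threshold of 1 TPM, with means of 1.3 TPM in the editor libraries and 0.946 TPM in the GFP libraries.

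**Figure D1:**
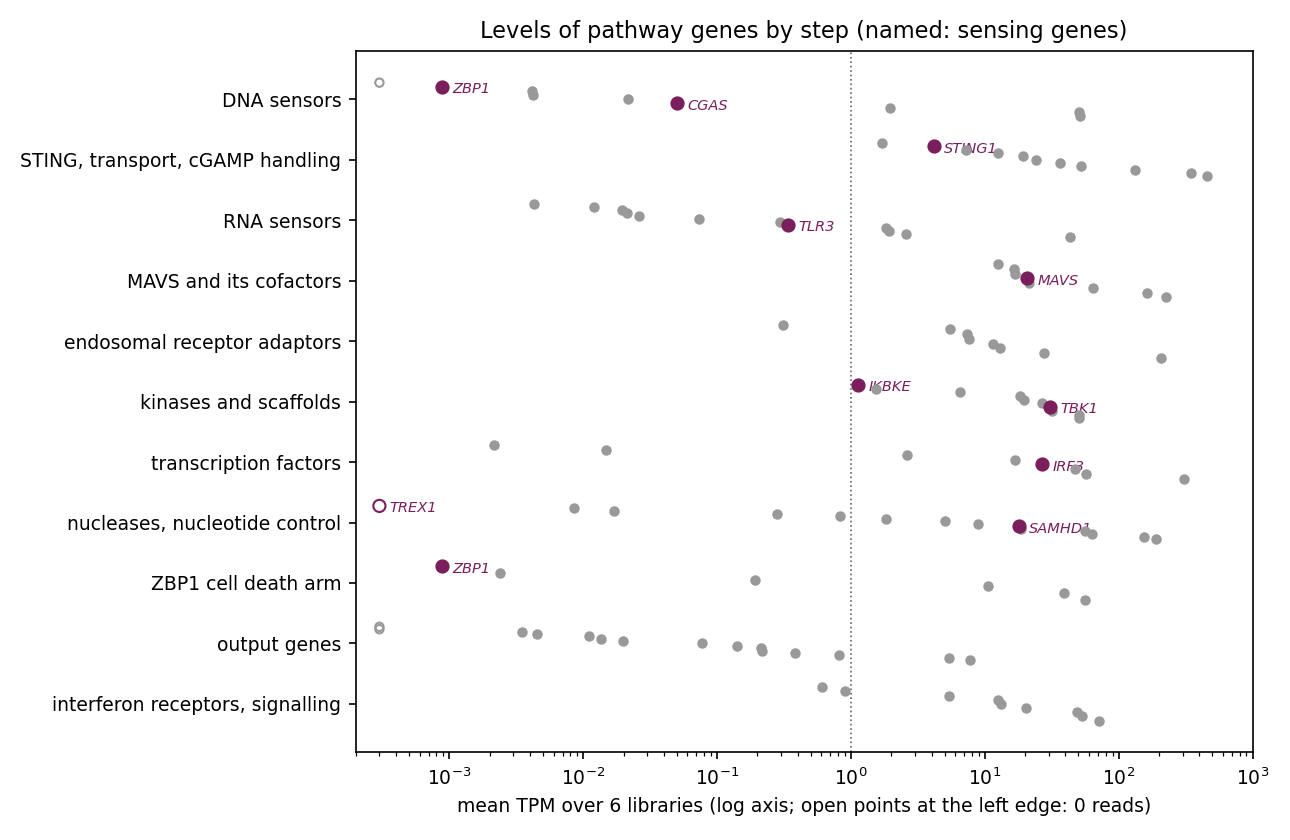
Mean TPM over the 6 libraries (log axis) of genes of the pathway, grouped by step from sensors at the top to interferon signalling at the bottom; the 10 sensing genes are named, the dotted line is 1 TPM and open points had 0 reads. CGAS, ZBP1 and TLR3 lie left of the line, whereas STING1, MAVS, TBK1, IKBKE, IRF3 and SAMHD1 lie on its right.

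Promoter windows from RefSeq (GRCh38.p14, 250 bases before the start of the gene and 50 after it) were found for 6 of the 10 genes. They are shown here for their content of CG dinucleotides, which mark the CpG-rich starts of many broadly expressed genes. TBK1 held 35 in its 300 bases, MAVS 34 and SAMHD1 22, while IKBKE and TLR3 held 5 each. TREX1, whose count of 0 reads cannot be read as absence, held 3. The median over 35116 such windows was 14. Protein-coding genes were classed by their window with the most CG. Of the 5519 with 30 or more CG, 86.3% reached 1 TPM in these cells, against 9.54% of the 2495 with 5 or fewer. IKBKE reached that level only narrowly, at 1.13 TPM over the 6 libraries. It stood at 0.946 TPM in the GFP libraries and at 0.982 TPM with the longest transcript as gene length. The windows of TBK1 and MAVS, rich in CG, and of TLR3 and IKBKE, poor in CG, follow, 5′ to 3′ on the strand of the gene, all 4 on the plus strand, with CG in capitals. Their positions are chr12:64451870-64452169 for TBK1, chr20:3846584-3846883 for MAVS, chr4:186068906-186069205 for TLR3 and chr1:206470226-206470525 for IKBKE.
TBK1: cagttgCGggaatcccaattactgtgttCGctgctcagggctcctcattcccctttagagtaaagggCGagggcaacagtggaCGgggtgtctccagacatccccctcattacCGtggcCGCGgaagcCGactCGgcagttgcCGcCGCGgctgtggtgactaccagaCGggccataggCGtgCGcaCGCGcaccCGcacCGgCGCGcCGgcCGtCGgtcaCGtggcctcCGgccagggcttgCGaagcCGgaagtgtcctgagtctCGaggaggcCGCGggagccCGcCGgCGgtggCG
MAVS: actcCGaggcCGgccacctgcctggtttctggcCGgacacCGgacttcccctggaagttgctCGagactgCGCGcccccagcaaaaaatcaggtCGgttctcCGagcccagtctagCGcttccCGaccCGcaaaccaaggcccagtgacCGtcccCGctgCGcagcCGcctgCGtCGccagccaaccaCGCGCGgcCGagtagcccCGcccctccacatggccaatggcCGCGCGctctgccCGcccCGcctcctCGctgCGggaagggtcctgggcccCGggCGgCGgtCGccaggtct
TLR3: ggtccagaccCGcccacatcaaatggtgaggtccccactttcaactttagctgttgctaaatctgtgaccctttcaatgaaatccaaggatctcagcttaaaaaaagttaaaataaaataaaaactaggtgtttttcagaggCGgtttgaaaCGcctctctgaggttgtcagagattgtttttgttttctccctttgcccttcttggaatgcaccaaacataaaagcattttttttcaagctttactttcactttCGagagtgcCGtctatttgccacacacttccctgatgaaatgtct
IKBKE: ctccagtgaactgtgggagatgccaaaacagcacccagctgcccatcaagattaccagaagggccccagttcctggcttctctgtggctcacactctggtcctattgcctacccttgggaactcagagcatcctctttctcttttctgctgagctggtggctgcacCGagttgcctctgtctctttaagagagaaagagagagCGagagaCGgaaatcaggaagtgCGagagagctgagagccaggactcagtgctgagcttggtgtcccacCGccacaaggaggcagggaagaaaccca

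The core of the interferon-stimulated response element was searched as GAAA, any 2 bases and GAAA, on both strands. It occurred once in the TLR3 window, as GAAAGTGAAA on the opposite strand from base -4 to base 5 around the gene start, and in none of the windows of the other 5 sensing genes. Of all windows, 3.57% held it. A match in the letters is not a measured binding site.

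CGAS, ZBP1 and TLR3 are the sensors of the set. CGAS (ENSG00000164430.17, chromosome 6 from 73413515 to 73452276, minus strand, GRCh38) is the cytosolic DNA sensor. Its counts were 5, 9 and 18 reads with the editor, against 4, 2 and 7 with GFP. As CPM, library shares scaled by TMM, that is 0.0469, 0.0692 and 0.113 with the editor, against 0.0308, 0.016 and 0.0581 with GFP. The groups overlapped, and CGAS was too low to pass the filter, so it was not tested. Its sums of 32 editor and 13 GFP reads give a ratio of 2.33 once TMM-scaled depths are taken into account, with a 95% interval from counting alone of 1.19 to 4.84, which leaves out the spread between libraries. CGAS shares 4.33% of its exonic bases with DDX43 on the opposite strand, and DDX43 itself had 14 reads in all. Reads did reach this region: of its 20 nearest protein-coding genes 12 had at least 1000 reads, among them EEF1A1, and the median over all protein-coding genes was 13 of 20.

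ZBP1 (ENSG00000124256.15, chromosome 20 from 57603846 to 57620576, minus strand) detects nucleic acids in the left-handed Z form and triggers cell death through RIPK3. It had 1 read, in editor library 2, among 769303318 counts, while 11 of its 20 nearest genes had at least 1000 reads. RIPK3 itself had 2 reads, both in editor library 3. MLKL, the pore-forming protein at the end of that arm, was counted at 32, 63 and 63 reads with the editor, against 19, 21 and 32 with GFP. Its editor values scaled to CPM all lay above its GFP values, as for 8.63% of the genes tested. The log2 fold change of MLKL was 1.03 (SE 0.30, edgeR adjusted p = 0.497). The other members of that arm were present, with the adaptor FADD at 55.6 TPM, the kinase RIPK1 at 39.3 and the protease CASP8 at 10.5. FADD shares 54.9% of its exonic bases with another gene on the opposite strand, and the strand setting of the counts is not given.

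TLR3 (ENSG00000164342.14, chromosome 4 from 186069152 to 186088069, plus strand) was the one sensor of the set with enough reads to be tested. It stood at 0.694, 0.831 and 0.646 CPM in the editor libraries, against 0.439, 0.529 and 0.506 CPM in the GFP libraries. All 3 editor values lay above all 3 GFP values, as they did for 8.63% of the genes tested. The log2 fold change was 0.56 (SE 0.20), a fold of 1.47 with a 95% interval of 1.08 to 2.01. Its adjusted p was 0.528 by edgeR's quasi-likelihood test with Benjamini-Hochberg adjustment, so TLR3 did not pass. This rests on 285 editor and 184 GFP reads. The summed level of fibroblast markers was 21 to 23.2 TPM with the editor and 17.9 to 19.1 TPM with GFP. Of 8 such markers 7 were tested, all 7 had a log2 fold change above 0 (54.3% of all genes did), 5 were higher at an unadjusted p under 0.05 (6.1% of all genes were) and 0 passed by edgeR. COL1A2 had 7 reads in all. Mitochondrially encoded genes took 4.62, 6.39 and 6.32% of counts with the editor, against 3.66, 4.49 and 3.42% with GFP, without overlap. The part of either in the TLR3 value was not tested.

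**Figure D2:**
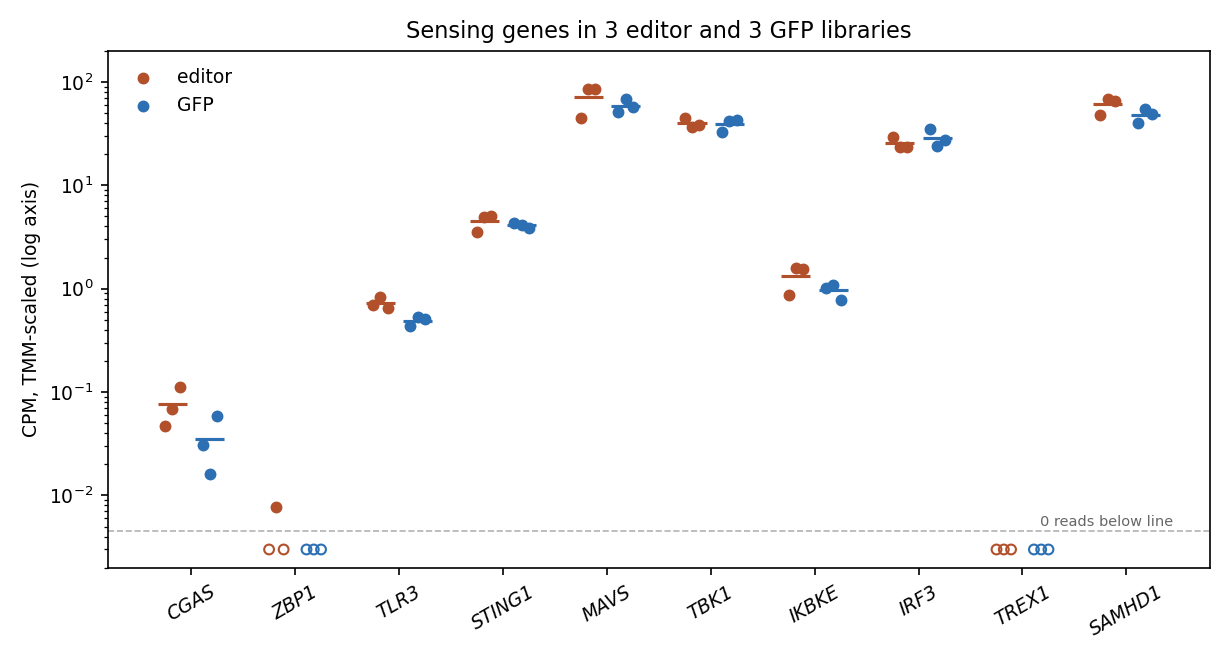
CPM (TMM-scaled, log axis) of the 10 sensing genes in each of 3 editor (left, orange) and 3 GFP libraries (right, blue); bars are group means where all 3 libraries had reads, and open points below the dashed line had 0 reads. The groups do not overlap for TLR3, while MAVS, SAMHD1, IKBKE and STING1 are lowest among editor libraries in editor library 1.

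RNA of both adaptors was present, and their protein was not measured. STING1 (ENSG00000184584.14, chromosome 5 from 139475534 to 139482935, minus strand) had 3.55, 4.88 and 5 CPM in the editor libraries and 4.35, 4.17 and 3.83 CPM in the GFP libraries. The groups overlapped, with editor library 1 lowest of the 6. The log2 fold change came to 0.12 (SE 0.16, 95% interval -0.25 to 0.49) and its adjusted p by edgeR to 0.865. In TPM, STING1 stood far above its upstream enzyme CGAS, at 63.2 times its level in the editor means and 126 times in the GFP means. Single libraries gave 47.7 to 281, since CGAS had few reads. All 11 genes of the STING list reached 1 TPM. The median of their log2 fold changes was -0.14, with 8 of the 11 under 0, as were 9365 of all 20511 genes tested. The genes that move STING out of or back to the endoplasmic reticulum or hold it there were abundant, with TMED2 at 453 TPM, SURF4 at 344, YIPF5 at 132 and STIM1 at 36.5. ENPP1, which degrades cGAMP outside the cell, stood at 52.1 TPM and the cyclic dinucleotide importer SLC19A1 at 7.18.

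MAVS (ENSG00000088888.18, chromosome 20 from 3846799 to 3876123, plus strand) had 45, 85 and 85.1 CPM in the editor libraries and 51.4, 68 and 57.4 CPM in the GFP libraries. Editor library 1 lay below all GFP libraries and editor libraries 2 and 3 above them, a spread of 1.89-fold within the editor group against 1.32-fold within the GFP group. The log2 fold change came to 0.28 (SE 0.23, 95% interval -0.24 to 0.81) and its adjusted p by edgeR to 0.756. Leaving out editor library 1 gave 0.51 (edgeR adjusted p = 0.087), and leaving out library 2 or 3 of that group gave 0.14. The fit without editor library 1 has only the 2 unusually alike libraries as its editor group. In it 22.5% of all genes had an unadjusted p under 0.05 by edgeR. Of the RNA sensors that feed MAVS, RIGI was low, while IFIH1 was above 1 TPM. RIGI (RIG-I) was counted at 13, 12 and 20 reads with the editor, against 6, 6 and 10 with GFP, or 0.0735 TPM over all. IFIH1 (MDA5) stood at 1.91 TPM. TRIM25, RNF135 and ZCCHC3, which help RIG-I to signal, were at 16.9, 16.6 and 64.8 TPM.

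TBK1 and IKBKE encode the 2 kinases. TBK1 (ENSG00000183735.11, chromosome 12 from 64451880 to 64502108, plus strand) had 44.9, 36.6 and 38 CPM in the editor libraries and 32.9, 42.3 and 42.8 CPM in the GFP libraries. The groups overlapped, with a log2 fold change of 0.02 (SE 0.14, interval -0.29 to 0.33, adjusted p = 0.977 by edgeR), whose sign turned with RLE scaling. The interval covers folds from 0.818 to 1.26. IKBKE (ENSG00000263528.8, chromosome 1 from 206470476 to 206496889, plus strand) is better known from immune cells. It had 0.872, 1.59 and 1.54 CPM in the editor libraries and 1.01, 1.09 and 0.78 CPM in the GFP libraries. Editor libraries 2 and 3 were the 2 highest, whereas editor library 1 fell among the GFP libraries. The log2 fold change came to 0.48 (SE 0.26, 95% interval -0.10 to 1.06) and its adjusted p by edgeR to 0.635. Without editor library 1, which leaves the 2 alike editor libraries, the log2 fold change was 0.68 (edgeR adjusted p = 0.088). All 10 genes of the kinase and scaffold list, which these 2 belong to, reached 1 TPM, with the adaptor AZI2 at 50.2 TPM and the NF-κB kinase CHUK at 50.7. AZI2 shares 55.4% of its exonic bases with CMC1 on the opposite strand. The strand setting of the counts is not given, so reads in that part cannot be told apart.

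IRF3 (ENSG00000126456.16, chromosome 19 from 49659569 to 49665875, minus strand), the transcription factor of the pathway, was the one tested sensing gene with a fold change below 0. It had 29.4, 23.6 and 23.4 CPM in the editor libraries and 35.1, 23.9 and 27.5 CPM in the GFP libraries. Editor library 1 lay among the GFP libraries, and GFP library 1 was the highest of the 6. The log2 fold change came to -0.18 (SE 0.16, 95% interval -0.54 to 0.19) and its adjusted p by edgeR to 0.782. Without GFP library 1 the log2 fold change was -0.03. BCL2L12 shares 19.3% of the exonic bases of IRF3 on the opposite strand and had 16260 reads in all, against 20793 for IRF3. Since the strand setting of the counts is not given, reads in the shared part cannot be told apart. BCL2L12 had a log2 fold change of -0.16 (SE 0.15; edgeR adjusted p = 0.792). The related factor IRF7, which amplifies the interferon response, had 1 read in all, but its neighbours HRAS and RNH1, expressed in most cells, had only 302 and 217, so that count does not show it to be off. Of the 8 transcription factors listed 6 reached 1 TPM. IRF1 stood at 2.63 TPM the NF-κB subunit RELA at 47.3, and JUN and ATF2, which bind the IFNB1 promoter next to IRF3, at 307 and 56.7.

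SAMHD1 (ENSG00000101347.11, chromosome 20 from 36889773 to 36951901, minus strand) had 48.2, 67.7 and 65.9 CPM in the editor libraries and 40.3, 54.1 and 49.2 CPM in the GFP libraries. Editor libraries 2 and 3 were the highest of the 6 and GFP library 1 the lowest, with editor library 1 among the GFP libraries. The log2 fold change came to 0.34 (SE 0.16, 95% interval -0.02 to 0.70) and its adjusted p by edgeR to 0.599. It was 0.22 without GFP library 1. TLDC2 shares 10.3% of its exonic bases on the opposite strand but had only 40 reads in all.

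TREX1 (ENSG00000213689.14, chromosome 3 from 48465811 to 48467645, plus strand) was listed at 0 reads in every library, and this does not show that it was silent. All 1515 of its exonic bases in GENCODE release 29 also belong to exons of ATRIP on the same strand. ATRIP, named here after its values were seen, averaged 12.8 ± 0.713 CPM with the editor and 12.5 ± 0.665 CPM with GFP (SD over 3 libraries each). How reads over several genes were counted is not given in the sources used here. Over the whole table, 250 of 263 protein-coding genes with all exonic bases shared on the same strand had 0 reads (95.1%), against 975 of 16469 genes with none shared (5.92%). The same limit touches TLR9, which had 0 reads and shares 86.3% of its exonic bases, as well as TICAM2 (82.2%), TREX2 (52.1%), IRF9 (48.4%) and RNASEH2A (30.8%). It also touches IFNAR2 (44.2%) and IL10RB (38.1%). CGAS, ZBP1, TLR3, STING1, MAVS and RIGI share no base on the same strand in that release, which may not be the annotation used for the counts.

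**Figure D3:**
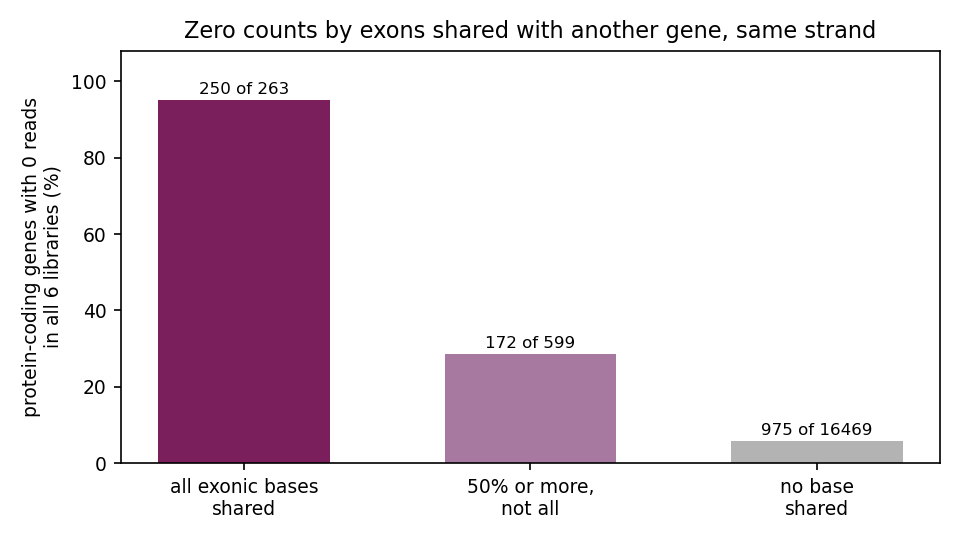
Share of protein-coding genes with 0 reads in all 6 libraries (percent, bars from 0), by how much of their exons lies in exons of another gene on the same strand; the numbers of genes stand above the bars. Of genes with all bases shared, as for TREX1, 95.1% had 0 reads, against 5.92% of genes with none shared.

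Set against the GFP libraries, 0 of the 7 tested sensing genes passed an adjusted p of 0.05 by edgeR, where 0.0244% of 20511 genes did. CGAS, ZBP1 and TREX1 were not tested. DESeq2 and limma-voom also called 0 of the 7, where they called 0.385% and 0.0146% of genes. At an unadjusted p under 0.05 there was 1 of 7, TLR3, against 8.68% of all genes and 6.1% counted in its direction. Of the 7, 6 had a log2 fold change above 0 (54.3% of all genes did), with TBK1 below 0 once RLE scaling was used. The median log2 fold change of the 7 was 0.28, against 0.02 over all genes tested. Without editor library 1, 213 genes passed (1%), again with 0 sensing genes among them. The upper ends of the 95% intervals ran from a log2 fold change of 0.19 for IRF3 and 0.33 for TBK1 to 1.06 for IKBKE. The authors' deposited table lists the same 7 genes, with log2 fold changes from -0.16 for IRF3 to 0.56 for TLR3 and its lowest adjusted p among them at 0.569 (TLR3).

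**Figure D4:**
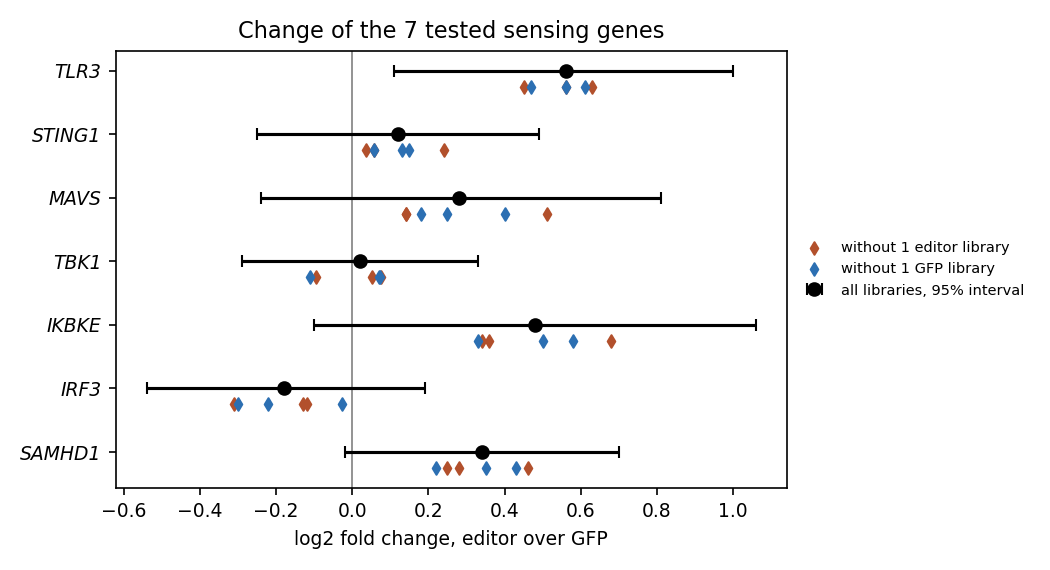
Log2 fold change, editor over GFP, of the 7 tested sensing genes: black points with 95% intervals use all 6 libraries, and diamonds show the value with 1 editor (orange) or 1 GFP library (blue) left out. The interval of TLR3, which starts at 0.11, is the one that does not reach 0, and the value furthest right for MAVS, 0.51, is the one without editor library 1.

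Other genes of the pathway were taken from 11 lists by step. Of the 99 genes beside the 10, 64 reached 1 TPM, 77 were tested, 0 passed in either direction by edgeR, and 7 (9.09%) had an unadjusted p under 0.05, near the 8.68% of all genes. These 7 were all higher, as 6.1% of all genes were. Their median log2 fold change was 0.04. Of 9 DNA sensors, only 3 reached 1 TPM: DDX41 and LRRFIP1, both also known for other roles in RNA metabolism or transcription, at 51.3 and 50.9 TPM, and IFI16 at 1.96. The DNA sensors AIM2, MNDA and PYHIN1, which neighbour IFI16, had 9, 2 and 3 reads in all, in a region where IFI16 alone among the 20 nearest genes of each had 1000 reads or more. IFI16 had a log2 fold change of 0.56 (SE 0.22; edgeR adjusted p = 0.544). Among 12 RNA sensors, 4 reached 1 TPM, led by the kinase EIF2AK2 (PKR), which halts translation on double-stranded RNA, at 43 TPM. DDX60, IFIH1 and the RNase L activator OAS3 were at 2.59, 1.91 and 1.82 TPM. OAS1 and OAS2 had 20 and 16 reads and the endosomal receptors TLR7 and TLR8 had 24 and 4. The median log2 fold change of the 8 RNA sensors tested was 0.34, with 7 above 0, as were 54.3% of all genes tested. RIGI was at 0.94 (SE 0.38, adjusted p = 0.552 by edgeR) and IFIH1 at 0.39 (SE 0.15, adjusted p = 0.529).

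All 8 genes of the MAVS list reached 1 TPM, among them the import receptor TOMM70 at 163 TPM and PCBP2, which promotes MAVS turnover, at 227. TRIM14 had the smallest p of that list, with a log2 fold change of 0.50 (SE 0.14; edgeR adjusted p = 0.491). The TLR3 adaptor TICAM1 (TRIF) stood at 5.5 TPM and UNC93B1, which brings endosomal receptors to their place, at 7.31. IRAK1 and TRAF6, which relay signals from Toll-like receptors, were at 206 and 27.7 TPM. Of the nucleases and their partners, 9 of 14 reached 1 TPM, with BANF1, which coats cytosolic DNA, at 189 TPM, and ADAR, which edits double-stranded RNA, at 154. DNASE2, the lysosomal DNase, stood at 55.8 TPM and RNASEH2C at 18.6. ADAR had a log2 fold change of -0.02 (SE 0.14; edgeR adjusted p = 0.975).

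Of the 15 output genes listed, 13 were under 1 TPM in the mean over the 6 libraries, the interferon genes among them. IFNB1 had 1 read among 769303318 counts, in editor library 3. The type III interferon genes IFNL1, IFNL2 and IFNL3 had 0, 2 and 3 reads, in a region where 12 to 13 of the 20 nearest genes had at least 1000 reads. TNF had 0 reads and CCL5 had 1, but TNF lies in the major histocompatibility complex and TAF15, a broadly expressed neighbour of CCL5, had only 25, so these are not evidence of absence. CXCL10, a chemokine induced by IRF3 and interferon, had 5, 11 and 10 reads with the editor, against 9, 7 and 10 with GFP. Only IFIT1 and ISG15 reached 1 TPM, at 5.39 and 7.69, both above the median of 5.24 TPM over protein-coding genes. Their log2 fold changes were 0.10 (SE 0.14) and -0.07 (SE 0.22). OASL had the smallest p of the 6 output genes tested, with 33, 76 and 98 reads with the editor, against 29, 26 and 27 with GFP. Its editor values scaled to CPM all lay above its GFP values, as for 8.63% of the genes tested. The log2 fold change of OASL was 1.21 (SE 0.29, edgeR adjusted p = 0.451).

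The window at the start of IFNB1 (chr9:21077893-21078192, minus strand, RefSeq, GRCh38.p14) is printed because it is where the pathway ends: IRF3 and NF-κB bind this promoter when the sensors fire. An NF-κB site, searched as GGGA, any 2 bases and TTCC, occurs as GGGAAATTCC from base -66 to base -57 before the gene start, on the strand of the gene, and is shown in capitals. Of all windows, 1.61% hold such a match on either strand. The exact pattern of GAAA, any 2 bases and GAAA did not occur in this window. Looser forms of that element were not searched, so this does not show that sites for IRF3 are lacking.
IFNB1: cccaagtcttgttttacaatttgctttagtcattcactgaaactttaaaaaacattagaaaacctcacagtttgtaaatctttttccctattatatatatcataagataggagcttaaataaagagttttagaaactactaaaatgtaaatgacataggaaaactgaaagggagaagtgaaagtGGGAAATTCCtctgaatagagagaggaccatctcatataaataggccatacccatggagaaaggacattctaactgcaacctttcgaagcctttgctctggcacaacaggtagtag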

How the data were processed

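RNA was measured in 3 editor and 3 GFP libraries. PolyA-selected TruSeq libraries were made from RNeasy-purified RNA and read on a NovaSeq 6000, per the labels' protocols. The submitters' processing notes name HISAT2, featureCounts and limma, with no versions. The sources used here do not give the build, the annotation, the strand setting or how multi-mapped reads were handled. The authors deposited raw counts per gene, not normalized, and a table with log2 fold changes, p-values and adjusted p-values, of which the 15273 rows of the comparison were read.

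IDs were matched to symbols by a lookup table. Exon lengths, overlaps and gene coordinates came from GENCODE 29 (GRCh38), matched by ID without version, and TPM used the union of exons; genes with a length held at least 99.83% of the counts. CPM used TMM-scaled library sizes. Fits used edgeR 4.0.16 in R 4.3.3 (default expression filter, quasi-likelihood F-test, Benjamini-Hochberg adjustment over 20511 genes), with DESeq2 1.42.0 and limma-voom (limma 3.58.1) as alternatives. SE is the log2 fold change over the square root of F. The fits were tested on simulated counts. Titles number the replicates as biological without saying whether cultures were separate, so p-values measure only the spread between these libraries. Counting intervals and the floor of 3 counts (0.0039 CPM over all libraries) cover counting error only.

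The genes, the pathway lists and the tests were chosen with earlier results of these data known. The sensing genes were always named; of each list, the 2 highest, the 2 with the smallest p and those under 10 reads in all, plus IFNB1, CXCL10, IFIT1, ISG15, RIGI, IFIH1, IFI16, AIM2, TICAM1, UNC93B1, ADAR and EIF2AK2. Other genes of these lists that are given by level, and the overlapping or neighbouring genes ATRIP, DDX43, BCL2L12, TLDC2, EEF1A1, HRAS, RNH1, TAF15, TUBB and DDX39B, were picked with their values in view. A few genes of these lists are not reported here. Alternatives were other scaling, filters, tools, the replicate number as a block and leaving out each library.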

Additional observations from a re-analysis of the deposited data

How the results depend on the processing

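Of the 7 tested sensing genes, 0 were called in each of the 14 alternative fits. TLR3, STING1, MAVS, IKBKE, SAMHD1 and IRF3 kept their sign in all 14, and TBK1 turned to -0.002 with RLE scaling, -0.002 with DESeq2, -0.035 without the low-count filter, -0.096 without editor library 1 and -0.11 without GFP library 1. With 1 library left out at a time, log2 fold changes ran from 0.45 to 0.63 for TLR3, 0.035 to 0.24 for STING1, 0.14 to 0.51 for MAVS, -0.11 to 0.076 for TBK1, 0.33 to 0.68 for IKBKE, -0.31 to -0.026 for IRF3 and 0.22 to 0.46 for SAMHD1. The number of sensing genes at 1 TPM or more was 6, and 5 with the longest transcript as length, at 2 TPM or in the GFP libraries alone. Over all genes, 5 higher and 0 lower became 178 and 129 without the low-count filter. DESeq2 gave 47 and 32, limma-voom 3 and 0, and the fit with the replicate block 1 and 0. The higher genes numbered 1 to 159 and the lower genes 0 to 54 when single libraries were omitted, with the highest counts when editor library 1 was the one omitted. That omission leaves the 2 unusually alike libraries as the editor group. The cause was not tested. Deviations of same-numbered libraries from their group means correlated with r of -0.0485, 0.173 and -0.237. With 3 libraries per group, 2 of them unusually alike in the editor group, this cannot decide whether the numbers pair them. Summing editor libraries 2 and 3, chosen after seeing the data, called 0 sensing genes. CGAS entered the fit without the filter, at 1.10 (SE 0.58, edgeR adjusted p = 0.747), as did ZBP1 with its 1 read. TREX1, with 0 reads in every library, did not enter that fit, and its 0 does not show that it was silent.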

Other observations

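Of 9 genes of interferon receptors and signalling, 7 reached 1 TPM, with the type I receptor chains IFNAR1 and IFNAR2 at 49.2 and 5.44 TPM, the kinases JAK1 and TYK2 at 71.7 and 20.3, and the transcription factor STAT2 at 13.3. IRF9, a transcription factor that binds STAT2, stood at 0.606 TPM, with 48.4% of its exonic bases shared with another gene on the same strand. The receptor chain IL10RB stood at 0.9 TPM, with 38.1% shared. IFNAR2 shares 44.2% of its exonic bases on the same strand and 39.1% on the opposite strand, so its level has the same limit. Of these 9 genes, 0 passed by edgeR (0.0244% of all genes did) and 0 had an unadjusted p under 0.05 (8.68% did). Their median log2 fold change was 0.02, as it was over all genes tested.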
